A study of Mus musculus with 4 samples.

Results

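The 8 genes described here encode pore-forming (alpha1) subunits of voltage-gated calcium channels: Cacna1a, Cacna1b, Cacna1c, Cacna1d, Cacna1e, Cacna1g, Cacna1h and Cacna1i. They were chosen by name, as the entries with these symbols in 4 gene expression tables of mouse amygdala, and all 8 were found once in every table among 22758 symbols kept. The study asked which transcripts lie on ribosomes of Npy neurons. It used translating ribosome affinity purification (TRAP), in which ribosomes carrying a tag are pulled down with the RNA they hold. All libraries came from NpyCre/+;TRAPlox/lox mice, in which Cre expressed from the locus of neuropeptide Y (Npy) acts on a lox-controlled TRAP allele, so both groups carried the same alleles and no treatment was named. The 2 immunoprecipitated (IP) libraries hold RNA recovered with the tagged ribosomes, and the 2 input libraries hold total RNA of the same tissue before the pull-down. Each library pooled 3 mice and tissue from both sides of the brain. A Cre-negative or mock pull-down was not analysed here, so RNA that is carried over without the tag was not measured, and whether every tagged cell still expressed Npy was not tested.

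Voltage-gated calcium channels open when a neuron is depolarised and admit the calcium that triggers transmitter release, dendritic signalling, burst firing and activity-dependent transcription. The alpha1 subunit forms the pore, the voltage sensor and the selectivity filter, and defines the current. Cav2 channels (P/Q-type from Cacna1a, N-type from Cacna1b, R-type from Cacna1e) act mainly at nerve terminals, with R-type current also found in dendrites and spines. Cav1 channels (L-type, here Cacna1c and Cacna1d) sit mainly on the soma and dendrites and couple activity to gene expression. Cav3 channels (T-type, from Cacna1g, Cacna1h and Cacna1i) open near the resting potential and support burst firing. Cav1 and Cav2 pores work with beta and alpha2delta accessory subunits, which control their trafficking and gating.

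Levels are given as FPKM, in which fragments are scaled by transcript length and by the mapped total of the library, so that genes can be compared within a library. The sums of FPKM were 423985 and 419349 in the IP libraries, against 334759 and 335119 in the input libraries. The depth is unknown, since the files give no read totals. For the 8 genes the confidence limits that Cufflinks listed around each value had a half-width of 3.03% to 12.3% of the value. The pull-down was checked by Npy itself, at 1240 and 1167 FPKM in IP and 105.4 and 99.2 FPKM in input. The neuropeptide gene Sst was at 4562 and 4756 FPKM in IP, against 356.9 and 335.6 FPKM in input. All 5 GABAergic markers rose (limma, adjusted p under the threshold of 0.05). The largest rise of these was that of Pvalb, at 375.3 and 297.1 FPKM in IP and 32.25 and 29.85 FPKM in input. Which of the tagged cells held Pvalb was not tested. Every tested astrocyte, oligodendrocyte, oligodendrocyte precursor, microglial, endothelial and mural marker fell, and of 5 glutamatergic markers 3 fell and 2 did not pass. Genes were tested if they had at least 1 FPKM in 2 or more libraries. All tested microglial, precursor and endothelial markers, and the tested mural markers other than Vtn, were below 1 FPKM in both IP libraries. They were tested only through input, so the filter fixed the direction of their change. The summed FPKM in IP and input was 27.7 to 34.0 against 170.5 to 184.5 for 5 astrocyte genes, 79.1 to 88.8 against 345.8 to 376.8 for 5 oligodendrocyte genes, 1.66 to 2.39 against 28.8 to 33.0 for 5 microglial genes, 2.63 to 2.89 against 23.8 to 26.2 for 5 mural genes, 1.22 to 1.77 against 9.885 to 11.5 for 3 precursor genes, 1.10 to 1.40 against 4.73 to 6.20 for 4 endothelial genes, and 144.7 to 222.5 against 352.3 to 363.4 for 5 glutamatergic genes. No marker on these lists was at 0 in any library. The part of these shifts in the results below was not tested.

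All 8 pore subunit genes had both IP values below both input values, and 7 of the 8 fell past the threshold. Their summed level was 33.3 and 32.5 FPKM in IP, against 69.3 and 72.6 FPKM in input. The falls were unequal: Cacna1e stood in IP at 23.5% of its input mean, Cacna1h at 28.4%, Cacna1d at 31.1%, Cacna1c at 45.1%, Cacna1b at 50.7%, Cacna1g at 61.5%, Cacna1a at 62.0% and Cacna1i at 82.6%. Among all 12417 genes tested, 33.9% were called lower and 37.0% higher in IP, and 41.4% had both IP values below both input values. The median change of the 8 genes was -0.90 on the log2(FPKM + 1) scale, against 0.03 over all genes tested. The added 1 makes these log2 changes understate the change of low genes. In such bulk libraries, fewer cells of a type and less RNA per cell cannot be told apart. Nor can a smaller part of the RNA on ribosomes, since IP holds ribosome-bound RNA and input total RNA. Each p-value rests on only 2 pooled libraries in each group. Its variance was moderated by limma toward a trend over all genes tested, so it is not the spread of that gene alone.

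**Figure D1:**
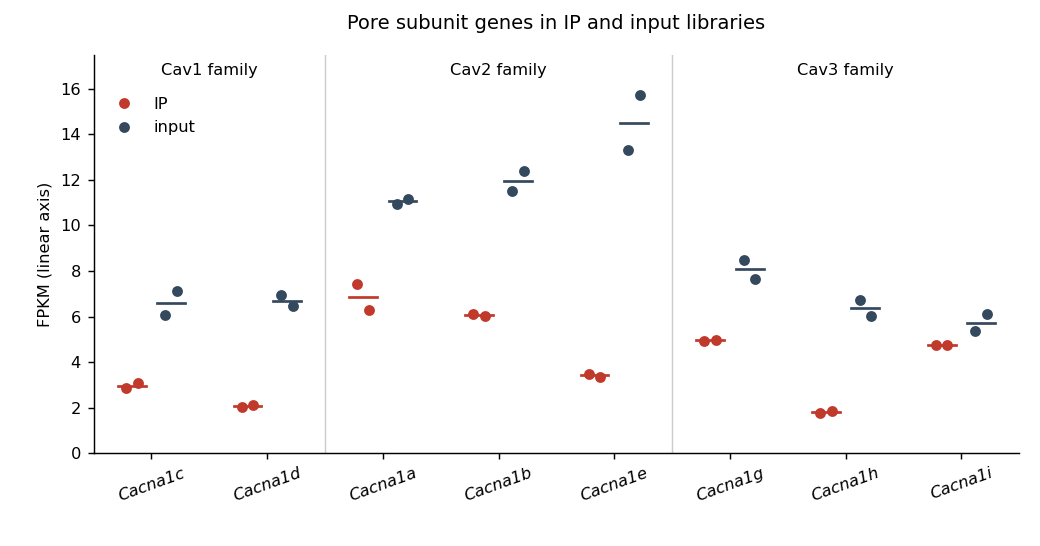
FPKM of the 8 pore subunit genes (vertical axis, linear) in the 2 IP libraries (red) and the 2 input libraries (dark), by channel family; points are libraries and bars are group means. The IP points lie below the input points for every gene, widest apart for Cacna1e (3.46 and 3.36 against 13.3 and 15.7) and closest for Cacna1i (4.73 and 4.74 against 5.36 and 6.11).

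Among the Cav2 genes, Cacna1e, the R-type pore, fell the most. It had 3.46 and 3.36 FPKM in IP, against 13.3 and 15.7 FPKM in input. It was the most abundant of the 8 genes in input and the fifth in IP. Its log2 change was -1.81 (SE 0.09, 95% interval -2.04 to -1.58; limma, adjusted p = 3.33e-05), and only 1.38% of all tested genes had a lower change. Cacna1b, the N-type pore that carries part of the calcium entry for release at many terminals, had 6.11 and 6.02 FPKM in IP, against 11.5 and 12.4 FPKM in input (log2 change -0.88, SE 0.07; limma, adjusted p = 0.000121). Cacna1a, the P/Q-type pore that drives fast release at most central synapses, fell the least of the Cav2 genes. It had 7.42 and 6.29 FPKM in IP, against 10.9 and 11.2 FPKM in input, and was the most abundant of the 8 in IP. Its log2 change was -0.62 (SE 0.09; limma, adjusted p = 0.00107). The 2 IP libraries differed more for Cacna1a than for any other of the 8 genes, with SD of 0.80 FPKM against 0.16 FPKM or less elsewhere, yet both stayed below both input libraries.

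Both Cav1 genes fell. Cacna1d, an L-type pore that opens at more negative voltages than Cacna1c channels, had 2.02 and 2.14 FPKM in IP, against 6.93 and 6.45 FPKM in input (log2 change -1.32, SE 0.08; limma, adjusted p = 5.02e-05). Cacna1c, the main L-type pore of brain and heart, had 2.86 and 3.08 FPKM in IP, against 6.07 and 7.11 FPKM in input (log2 change -0.93, SE 0.10; limma, adjusted p = 0.000295). In input the libraries did not order these genes, with Cacna1c the lower in replicate 1 and the higher in replicate 2. In IP Cacna1c was above Cacna1d in both libraries. The ratio of Cacna1c to Cacna1d FPKM was 1.41 and 1.44 in IP, against 0.876 and 1.10 in input.

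Of the Cav3 genes, 2 fell and 1 did not pass. Cacna1h, a T-type pore, had 1.75 and 1.87 FPKM in IP, the lowest level of the 8 there, against 6.72 and 6.01 FPKM in input (log2 change -1.39, SE 0.09; limma, adjusted p = 5.51e-05). Cacna1g, a T-type pore of burst-firing neurons, had 4.93 and 4.99 FPKM in IP, against 8.49 and 7.65 FPKM in input (log2 change -0.60, SE 0.08; limma, adjusted p = 0.000772). Cacna1i, whose T-type current is slower than that of the other Cav3 channels, was the gene that did not pass. It had 4.73 and 4.74 FPKM in IP, against 5.36 and 6.11 FPKM in input. Its log2 change was -0.23 (SE 0.09, 95% interval -0.44 to -0.02; limma, unadjusted p = 0.0358, adjusted p = 0.0504). With the replicate number as a block the adjusted p was 0.0415, past the threshold. The Cufflinks limits of the IP and input libraries overlapped for Cacna1i and lay apart for the other 7 genes. In input Cacna1i was the least abundant of the 8, and in IP it stood above Cacna1e, Cacna1c, Cacna1d and Cacna1h.

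The order of the levels was not the same in both groups. In IP it ran Cacna1a, Cacna1b, Cacna1g, Cacna1i, Cacna1e, Cacna1c, Cacna1d and Cacna1h, and the library values of every neighbouring pair lay apart. The Cufflinks limits did not part all of these pairs. They overlapped in both IP libraries for Cacna1g and Cacna1i and for Cacna1d and Cacna1h. In IP replicate 2 they also overlapped for Cacna1a and Cacna1b and for Cacna1e and Cacna1c. In input it ran Cacna1e, Cacna1b, Cacna1a, Cacna1g, Cacna1d, Cacna1c, Cacna1h and Cacna1i, and the library values of the last 4 genes overlapped from each to the next. Their input means lay between 5.73 and 6.69 FPKM, while in IP the same genes ranged from 1.81 FPKM for Cacna1h to 4.73 FPKM for Cacna1i.

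The make-up of the pool was followed as each gene's share of the summed FPKM of the 8 genes, which does not depend on how libraries are scaled to each other. The shares of Cacna1a, Cacna1b, Cacna1g and Cacna1i were higher in both IP libraries than in both input libraries, those of Cacna1d, Cacna1e and Cacna1h were lower, and that of Cacna1c overlapped. Cacna1e made up 10.4% in each IP library, against 19.2% and 21.6% in input. Cacna1i made up 14.2% and 14.6% in IP, against 7.74% and 8.41% in input. Cacna1a made up 22.3% and 19.4% in IP, against 15.8% and 15.4% in input. With the length trend removed, the mean difference of the Cacna1a share was 3.13 percentage points, against 5.26 without that correction. That of Cacna1c was then 1.29 points with the groups apart, against -0.23 points with the groups overlapping. By family, Cav3 genes held 34.3% and 35.7% in IP, against 29.7% and 27.2% in input. Cav1 genes held 14.7% and 16.1% in IP, against 18.7% in each input library. Cav2 genes held the most in both groups, with 51.1% and 48.2% in IP and 51.6% and 54.1% in input. Shares of 1 pool are bound to each other, so a lower share of Cacna1e raises the others. With 2 libraries against 2, an exact permutation test (two-sided) cannot go below p = 0.333, which is the value for each of these shares except that of Cacna1c (p = 0.667).

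**Figure D2:**
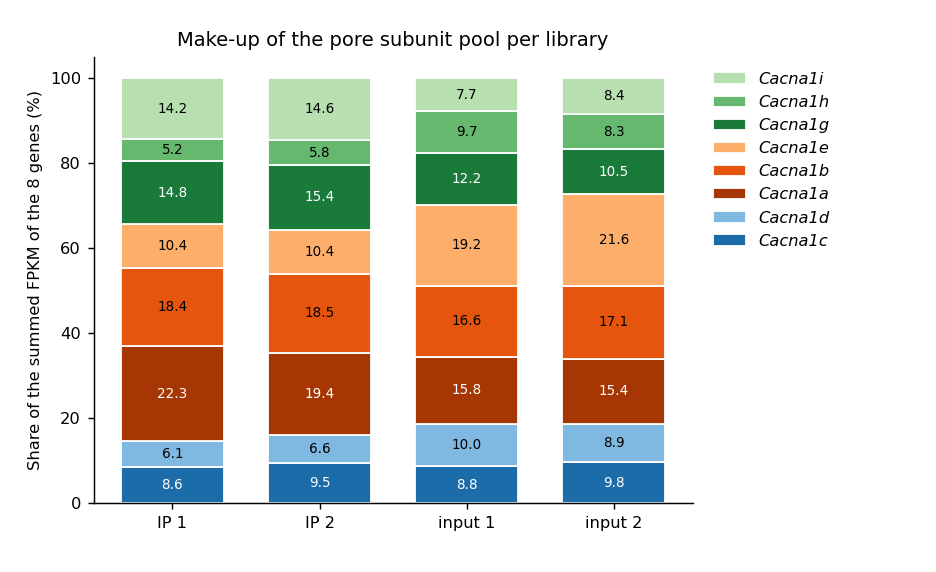
Share of each pore subunit gene in the summed FPKM of the 8 genes (vertical axis, percent) in each IP and input library, with blue for Cav1, orange for Cav2 and green for Cav3 genes. Cacna1e is narrower in IP (10.4% in each library against 19.2% and 21.6%) and Cacna1i is wider (14.2% and 14.6% against 7.74% and 8.41%).

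Ratios within a library, without the length correction, show the same contrast inside the Cav2 and Cav3 families. Cacna1i over Cacna1h, both T-type pores, was 2.71 and 2.53 in IP, against 0.798 and 1.02 in input. Cacna1g over Cacna1h was 2.82 and 2.66 in IP, against 1.26 and 1.27 in input. Cacna1a over Cacna1e, the P/Q-type over the R-type pore, was 2.14 and 1.87 in IP, against 0.822 and 0.712 in input. The transcripts of these 2 genes differ in length, with 7926 bases for Cacna1a and 14921 for Cacna1e. In each of these ratios the groups did not overlap, and the exact permutation test (two-sided) gave its smallest possible p of 0.333.

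Transcripts of all 8 genes are long, and the change between IP and input moved with transcript length over all genes. Lengths were those of the longest protein-coding GENCODE transcript, from 7926 bases for Cacna1a to 14921 bases for Cacna1e. Over all tested genes the median log2 change was 0.48 for transcripts under 1000 bases and was lower in each longer class, reaching -0.44 for the 1153 genes with transcripts of at least 7000 bases. In that longest class 67.4% of genes were called lower. Of the 8 pore subunit genes, all in that class, 7 were called lower and 7 had a change below its median. Cacna1e, with the longest transcript of the 8, had the largest fall. The order of the changes was otherwise not that of the lengths: Cacna1h, with a transcript of 8230 bases, changed by -1.39, and Cacna1c, with 13162 bases, by -0.93. What links length to the change was not tested.

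**Figure D3:**
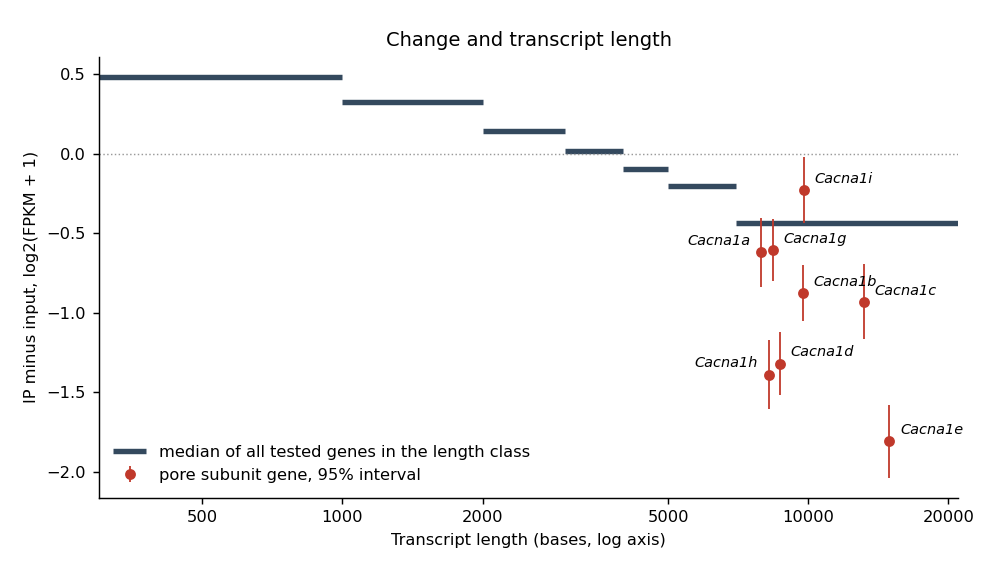
Log2 change between IP and input on the log2(FPKM + 1) scale (vertical axis, IP minus input) against transcript length (horizontal axis, bases, log scale). Bars give the median of all tested genes in a length class, from 0.48 under 1000 bases to -0.44 at 7000 bases or more, and points give the 8 pore subunit genes with 95% intervals from the limma fit; Cacna1i lies above the bar of its class and the other 7 below it.

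After the length trend was removed in each library, 6 of the 8 genes were lower in IP and 1 was higher, where 31.6% of all genes were called lower and 34.0% higher. The median change of the 8 genes was then -0.34, against -0.90 without the correction. The genes with the largest falls kept the call: Cacna1e changed by -1.08 (limma, adjusted p = 0.000161), Cacna1h by -1.01 (adjusted p = 0.000326) and Cacna1d by -0.91 (adjusted p = 0.000339). Cacna1b changed by -0.40, Cacna1c by -0.28 and Cacna1a by -0.26, all past the threshold (adjusted p = 0.00272, 0.0341 and 0.0309). Cacna1g no longer passed, at -0.21 (adjusted p = 0.0624). Cacna1i turned to the other direction, at 0.25 (adjusted p = 0.0350). Cacna1e, Cacna1h and Cacna1d were the lowest 3 of the 8 with and without the correction.

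The scaling between libraries moved the size of the changes and the call of Cacna1i, and no direction. With each library rescaled to a common sum, which moved the median of all genes to -0.29, all 8 genes were called lower, against 53.8% lower and 17.9% higher over all genes. Cacna1i then changed by -0.57 (limma, adjusted p = 0.00228). With quantile normalization 7 were called lower, against 30.2% lower and 35.3% higher over all genes, and Cacna1i changed by -0.02 (adjusted p = 0.858). Cacna1e ranged from -2.29 after rescaling to -1.71 with quantile normalization.

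**Figure D4:**
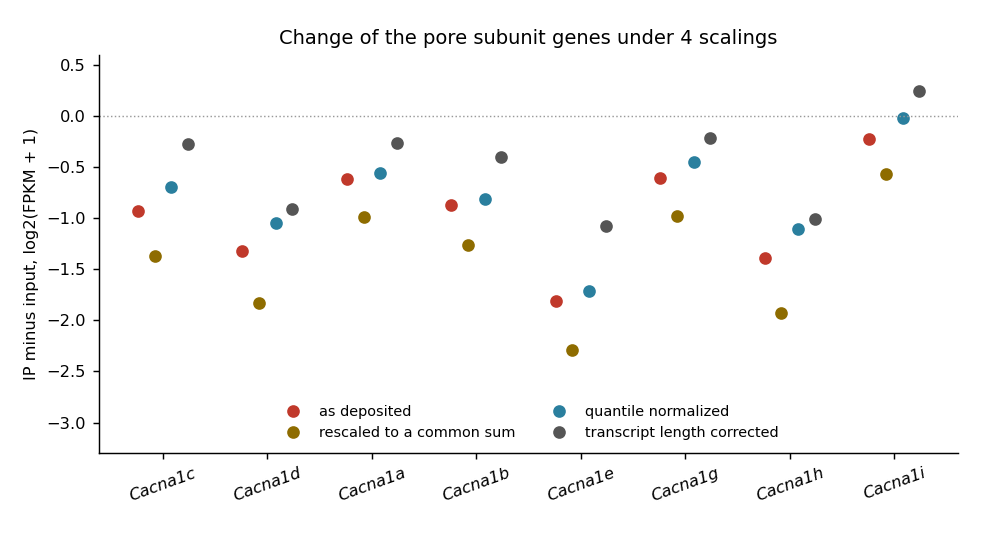
Log2 change of each pore subunit gene (vertical axis, IP minus input, log2(FPKM + 1)) with the values as deposited, after rescaling to a common sum, after quantile normalization, and with the transcript length trend removed. Cacna1e, Cacna1h and Cacna1d lie lowest under each of the 4, and Cacna1i runs from -0.57 to 0.25.

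The genes lie on 8 different chromosomes. In mm10 coordinates (whole gene, from the deposited tables), Cacna1e lies on the minus strand of chromosome 1 from 154392519 to 154725920, and Cacna1i on the plus strand of chromosome 15 from 80287238 to 80398292. The spans ran from 59.5 kb for Cacna1h to 609.2 kb for Cacna1c. Whether reads were assigned by strand is not stated in the labels, so reads in exons shared with genes on the other strand cannot be told apart. GENCODE places Dcp1b opposite Cacna1c, Dcp1a and Chdh opposite Cacna1d, and Tpsg1 opposite Cacna1h. Dcp1b, an mRNA decapping factor gene, had 3.88 and 4.66 FPKM in IP, against 5.35 and 5.56 FPKM in input. Dcp1a had 5.05 and 4.68 FPKM in IP, against 5.62 and 5.34 FPKM in input. Chdh and Tpsg1 were listed at 0 in every library.

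RefSeq promoter windows (GRCm38.p6, 250 bases before to 50 bases after a start) were found for 5 of the 8 genes. Those of Cacna1e (largest fall), Cacna1b (a Cav2 gene with a smaller fall) and Cacna1i (smallest change) are shown 5′ to 3′. Those of Cacna1c and Cacna1d are not shown. Capitals mark GC boxes (GGGCGG, searched on both strands, overlaps counted). The windows are chr1:154725871-154726170 on the minus strand, chr2:24763103-24763402 on the minus strand and chr15:80286988-80287287 on the plus strand, in this order.
Cacna1e: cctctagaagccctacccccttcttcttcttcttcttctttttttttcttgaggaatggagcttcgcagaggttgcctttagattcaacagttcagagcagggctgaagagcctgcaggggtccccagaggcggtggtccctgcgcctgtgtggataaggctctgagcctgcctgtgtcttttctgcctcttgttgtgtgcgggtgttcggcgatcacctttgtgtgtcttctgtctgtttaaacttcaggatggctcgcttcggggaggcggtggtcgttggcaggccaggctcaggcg
Cacna1b: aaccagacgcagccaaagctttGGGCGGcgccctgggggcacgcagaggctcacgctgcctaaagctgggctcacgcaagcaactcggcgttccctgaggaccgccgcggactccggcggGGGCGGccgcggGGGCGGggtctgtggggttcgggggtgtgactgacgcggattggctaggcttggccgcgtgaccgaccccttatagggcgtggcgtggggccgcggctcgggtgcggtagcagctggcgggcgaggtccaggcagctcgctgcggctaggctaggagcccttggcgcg
Cacna1i: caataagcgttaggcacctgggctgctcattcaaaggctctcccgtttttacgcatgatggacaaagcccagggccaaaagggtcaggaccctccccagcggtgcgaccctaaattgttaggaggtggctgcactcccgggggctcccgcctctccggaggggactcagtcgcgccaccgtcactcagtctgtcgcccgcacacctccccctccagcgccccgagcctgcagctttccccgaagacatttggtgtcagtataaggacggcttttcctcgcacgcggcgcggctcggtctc
The Cacna1b window held 3 GC boxes, with 72.3% G and C and 35 CG dinucleotides. The Cacna1e window held no GC box, with 55.3% G and C and 11 CG dinucleotides, and the Cacna1i window none, with 62.7% G and C and 23 CG dinucleotides. Over all 32851 RefSeq windows of this length, 35.7% held a GC box and the median G and C content was 52.7%. A CCAAT box (CCAAT) was in the Cacna1b window alone of these 3 and in 37.4% of all windows. A TATA box (TATAAA, in 13.6% of all windows) and a cyclic AMP response element (TGACGTCA, in 1.79%) were in none of the 3, all searched on both strands. Of the windows not shown, a Cacna1d window held 6 GC boxes, with 87.3% G and C. The other Cacna1d window held no GC box and 3 TATA boxes. A Cacna1c window held 6 GC boxes and the other Cacna1c windows none. Whether the content of the windows goes with the changes was not tested.

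The accessory subunit genes gave calls in both directions. Over all genes tested, 37.0% were called higher and 33.9% lower, the shares to set beside the counts of this and the following lists. Of the 4 beta subunit genes, 1 rose, 1 fell and 2 did not pass. After rescaling, and also with quantile normalization, 3 were called lower and none higher. Over all genes, 53.8% were called lower after rescaling and 30.2% with quantile normalization. Cacnb3, the most abundant, had 110.9 and 91.6 FPKM in IP, against 114.9 and 108.7 FPKM in input (log2 change -0.15; limma, adjusted p = 0.196). Cacnb1 had 57.9 and 47.5 FPKM in IP, against 66.3 and 58.8 FPKM in input (log2 change -0.25; adjusted p = 0.0736). Beta subunits bind the intracellular linker of Cav1 and Cav2 pores. Cacnb2 fell to 12.9 and 13.3 FPKM in IP, against 17.6 and 16.8 FPKM in input (log2 change -0.37; adjusted p = 0.0022). Cacnb4 had 39.1 and 37.0 FPKM in IP, against 34.1 and 31.4 FPKM in input (log2 change 0.21; adjusted p = 0.0231), a rise that turned to -0.12 after rescaling and -0.04 with quantile normalization. The summed FPKM of the pores over that of the beta subunits was 0.151 and 0.172 in IP, against 0.298 and 0.337 in input. Beta transcripts other than Cacnb4 are shorter than those of the pores, so length differs along with this ratio.

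The alpha2delta genes, whose products sit on the outer face of the channel and bind gabapentinoid drugs in the case of Cacna2d1 and Cacna2d2, went in opposite directions. Cacna2d1 fell to 7.26 and 6.81 FPKM in IP, against 19.95 and 21.0 FPKM in input (log2 change -1.42, SE 0.07; limma, adjusted p = 2.74e-05). Cacna2d2 rose to 12.1 and 12.7 FPKM in IP, against 6.18 and 6.54 FPKM in input (log2 change 0.87, SE 0.07; adjusted p = 0.000119). Both calls stood after rescaling (-1.82 and 0.60) and after the length correction (-1.09 and 1.08). Cacna2d3 had 16.7 and 17.4 FPKM in IP, against 14.3 and 12.7 FPKM in input (log2 change 0.32; adjusted p = 0.0100), with a value of -0.003 (adjusted p = 0.972) after rescaling. Cacna2d4 stayed below the filter, with at most 0.24 FPKM in any library. Of the summed alpha2delta FPKM, Cacna2d1 made up 20.01% and 18.3% in IP, against 49.05% and 51.9% in input. Cacna2d2 made up 33.4% and 34.2% in IP, against 15.2% and 16.1% in input.

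**Figure D5:**
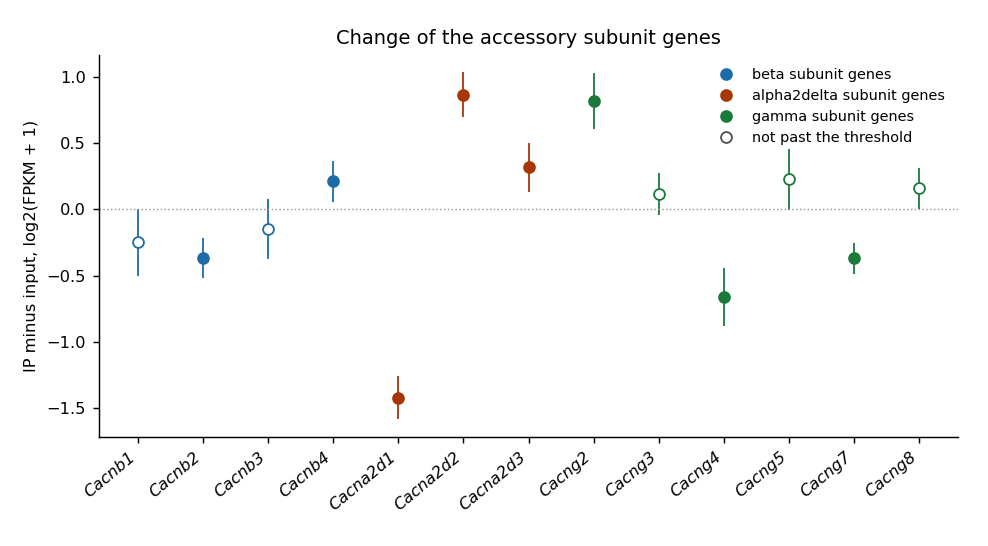
Log2 change between IP and input (vertical axis, log2(FPKM + 1), IP minus input) of the tested beta, alpha2delta and gamma subunit genes, with 95% intervals from the limma fit; open points did not pass the threshold. Cacna2d1 lies at -1.42 and Cacna2d2 at 0.87, while the beta subunit genes lie between -0.37 and 0.21.

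Of 6 tested gamma subunit genes, most of which encode partners of AMPA receptors, 1 rose, 2 fell and 3 did not pass. Cacng2 (stargazin) rose by 0.82, with 23.7 and 20.7 FPKM in IP against 12.8 and 11.5 FPKM in input (limma, adjusted p = 0.000328). Cacng4 fell by 0.66, with 6.06 and 5.95 FPKM in IP against 10.9 and 9.33 FPKM in input (adjusted p = 0.000847). Of the further pore genes of this architecture, Cacna1f and Cacna1s, known from retina and skeletal muscle, were near 0, with at most 0.04 and 0.21 FPKM in any library. Nalcn, the sodium leak channel, had 10.6 and 11.8 FPKM in IP, against 9.67 and 10.6 FPKM in input (log2 change 0.13; adjusted p = 0.192; -0.19 after rescaling). Nalcn has a transcript of 7122 bases, in the same length class as the 8 pore genes, and after the length correction it was higher by 0.44 (adjusted p = 0.00517).

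Of 15 genes that place calcium channels at the active zone or act beside them in release, 5 rose, 7 fell and 3 did not pass. Over all genes tested, 37.0% were called higher and 33.9% lower. Pclo (piccolo), a scaffold of the active zone, changed the most among the falls, with 2.77 and 3.08 FPKM in IP against 10.1 and 11.8 FPKM in input (log2 change -1.60; limma, adjusted p = 4.95e-05). Syt2, a fast calcium sensor of release, rose the most, with 8.69 and 7.11 FPKM in IP against 2.90 and 2.49 FPKM in input (log2 change 1.27; adjusted p = 0.000168). After rescaling 2 of the 15 were higher and 9 lower. Calcium-activated potassium channel genes, which are opened by the calcium that these channels admit, gave 1 rise, 3 falls and 2 not past the threshold of 6 tested. Kcnmb2, an inactivating accessory subunit of BK channels, rose to 5.17 and 6.36 FPKM in IP, against 1.02 and 1.09 FPKM in input (log2 change 1.71; adjusted p = 5.43e-05). Kcnn3, an SK channel, fell to 0.806 and 0.698 FPKM in IP, against 2.88 and 2.49 FPKM in input (log2 change -1.07; adjusted p = 0.000200). Both its IP values were below the filter of 1 FPKM, so it was tested only through input and could only fall. The BK channel pore Kcnma1, above the filter in every library, had 5.30 and 4.88 FPKM in IP, against 10.9 and 12.7 FPKM in input (log2 change -1.07).

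Among 12 tested regulators of the channels, 5 rose, 6 fell and 1 did not pass, and after rescaling 1 was higher and 7 lower. Stac2, an adaptor that binds L-type channels and slows their inactivation, rose to 61.3 and 47.1 FPKM in IP, against 19.0 and 15.8 FPKM in input (log2 change 1.58; limma, adjusted p = 0.000151). Camk2a, the kinase subunit that relays calcium signals at excitatory synapses, fell to 191.7 and 170.8 FPKM in IP, against 362.1 and 376.8 FPKM in input (log2 change -1.03; adjusted p = 5.56e-05). Among 12 tested genes of calcium stores and extrusion, none rose and 10 fell, with a median of -0.72. After the length correction 3 were higher and 6 lower, where 34.0% of all genes were called higher and 31.6% lower. Ryr3, an intracellular calcium release channel with a transcript of 15468 bases, fell to 0.734 and 0.734 FPKM in IP, against 4.86 and 4.57 FPKM in input (log2 change -1.72; adjusted p = 3.05e-05). Ryr3 and Ryr1, both among the 10 falls, were below the filter of 1 FPKM in both IP libraries. They were tested only through input and could only fall. Over all these lists together, from the relatives of the pores to the stores, 15 of 59 tested genes were higher and 30 lower, with a median change of -0.34. After rescaling 6 were higher and 38 lower. Of the 59, Kcnn3, Ryr1 and Ryr3 passed the filter only through input and Stac only through IP. With the values as deposited, the filter fixed the direction of their change. Over all genes tested, 37.0% were higher and 33.9% lower with the values as deposited, and 17.9% higher and 53.8% lower after rescaling, which are also the shares to set beside the rescaled counts of each list.

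The gene of these lists whose profile lay nearest to each pore gene was found by the Euclidean distance of centred log2(FPKM + 1) values over the 4 libraries, among 59 candidates. Rimbp2, which encodes a protein linking calcium channels to the active zone, was nearest to Cacna1g at a distance of 0.06. Unc13a, a vesicle priming factor, was nearest to Cacna1a at 0.10. Cacna2d1 was nearest to both Cacna1d and Cacna1h at 0.18. The BK channel pore Kcnma1 was nearest to Cacna1c at 0.19, Pclo to Cacna1e at 0.23, the sodium-calcium exchanger Slc8a2 to Cacna1b at 0.17 and the calcium pump Atp2b3 to Cacna1i at 0.15. With 2 groups of 2 libraries, this measure mostly reflects the size of the difference between IP and input.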

How the data were processed

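RNA of mouse amygdala was sequenced from 2 IP and 2 input libraries, with 3 mice pooled per library, 200 ng of RNA and 100 bp single-end reads per the series' design text. Reads were aligned with TopHat to mm10 with the iGenomes UCSC annotation and summarised with Cufflinks, per the submitters' processing notes and design text, with versions not given in the sources used here. The deposited values are gene-level FPKM with confidence limits, made by the authors for each library; no scaling between libraries is recorded per the file headers, and the authors' Cuffdiff test was not used.

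Groups and replicate numbers came from the titles. The title of IP replicate 2 was followed where its source description gives replicate 1. Entries of a failed status (8) and small RNA names (1274) were left out, the entry with the highest mean was kept per symbol, and genes with FPKM of at least 1 in 2 or more libraries were tested, including all 8 pore genes. FPKM are not counts, so log2(FPKM + 1) was tested with limma 3.58.1 (R 4.3.3; lmFit, eBayes with trend, no block, two-sided), with Benjamini-Hochberg adjustment over all 12417 genes tested and a threshold of 0.05. The design pairs each IP with its input, and deviations of same-numbered libraries from the group means correlated at 0.163 across genes. Replicate libraries of a group shared 0 identical values among genes at 5 FPKM or more. Transcript lengths were found for 99.3% of the genes tested. The correction for length removed a lowess of each library's deviation from the gene mean on log2 length. Named genes are the 8 pore genes, all beta and alpha2delta genes, the largest rise and fall past the threshold of each other calcium list and the nearest gene to each pore gene. Nalcn, Cacna1f, Cacna1s, Ryr1, Stac, Vtn and the overlapping genes were named after their values were seen. The members and lists were chosen with earlier results of these data known. Python 3.11.15, pandas 2.3.3, numpy 2.4.6 and matplotlib 3.10.9 were used.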

Additional observations from a re-analysis of the deposited data

How the results depend on the processing

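The calls were recomputed under 16 alternatives (pseudocounts of 0.1 and 5, a low-value filter that was dropped or set at 5 FPKM, 3 other scalings, the replicate block, 2 other variance models, summed entries per symbol, the length correction and each library left out). The falls of Cacna1a, Cacna1b, Cacna1c, Cacna1d, Cacna1e and Cacna1h kept their direction and call under all 16. Cacna1g kept its call under 15 and lost it after the length correction. Cacna1i was called lower under 6 of the 16, including the replicate block (-0.23, adjusted p = 0.0415) and rescaling, was not called under 9, and was called higher after the length correction (0.25), so that the number of pore genes called higher was 1 there, against 0 with the values as deposited, where all 8 changes were below 0 on the log2 scale. The replicate block changed no other call of a pore gene. Of the genes of the other calcium lists, 6 were called higher after rescaling, against 15 with the values as deposited, while the share called higher over all genes was 17.9% after rescaling, against 37.0%. Without each library in turn, the change of Cacna1i ran from -0.31 to -0.15 and was not past the threshold. The share of a pore gene in the pool differed without overlap for 7 of the 8 genes. Shares were rerun under 6 alternatives (summed entries, the length correction and each library left out). With the length correction the shares of all 8 lay apart. Each of the 8 genes has a single entry, so summing entries could not change a share and is no check of it. Leaving out a library cannot make groups that lie apart overlap, so those alternatives could not lower the count and do not check it. Depth is not given in the files, and 2 libraries per group limit the precision.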
